A study of Mus musculus with 6 samples.

Results

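Apolipoproteins are the protein coats of the particles that carry lipid in blood, and the liver makes most of them. Very-low-density lipoprotein is built in the hepatocyte around a single apolipoprotein B, which the microsomal triglyceride transfer protein loads with lipid. In the circulation, lipoprotein lipase and hepatic lipase strip triglyceride and phospholipid from the particles, with apolipoprotein C-II as an activator and C-III as an inhibitor of lipoprotein lipase. High-density lipoprotein forms around apolipoprotein A-I and carries several of the smaller apolipoproteins.

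The 10 genes described here were chosen by symbol from a table of 22274 genes: Apoa1, Apoa4, Apoa5, Apob, Apoc2, Apoc3, Apoe, Apom, Lipc and Mttp. RNA of C57 mouse livers was sequenced after infection with an adenovirus that overexpresses mouse Dyrk1b, a kinase of the DYRK family (Ad-Dyrk1b, 3 libraries), or with a control adenovirus (Ad-EGFP, 3 libraries). Every animal thus carried an adenovirus. The sources used here do not give age, sex, virus dose, time after infection or the promoter that drives the transgene. They do not state that each library is a different mouse either, so the p-values speak only of the spread between libraries, which may be technical. The question that the series title poses is how hepatic Dyrk1b bears on systemic glucose.

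Library totals ranged from 17326516 to 20024888 counts. Dyrk1b stood at 62.2, 101 and 96.5 FPKM (the authors' unit, fragments scaled by transcript length and library depth) in the Ad-Dyrk1b libraries and at 3.81, 4.97 and 4.16 FPKM in the Ad-EGFP libraries, so all 3 libraries labelled Ad-Dyrk1b exceeded all 3 controls. The counts do not separate the viral from the mouse transcript. Alb, the hepatocyte albumin gene, was the most abundant gene of the table. The summed level of 6 hepatocyte markers was 80593 to 108682 normalised CPM (counts scaled to a fixed library size by the TMM method) in Ad-Dyrk1b and 91048 to 96396 in Ad-EGFP libraries. Alb made up most of that sum in every library. Of the 6 markers 1, the transferrin gene Trf, was called higher with Ad-Dyrk1b (log2 fold change 0.55 ± 0.15, edgeR adjusted p = 0.0338) and 0 lower. Of 13201 genes that passed a low-count filter and were tested with edgeR, 972 were called higher with Ad-Dyrk1b and 635 lower, at an adjusted p under 0.05. That split was 694 higher (5.26%) and 1051 lower (7.96%), 13.2% in all, when libraries were scaled by their totals alone, which shifts the median log2 fold change of all genes from 0.00 to -0.09.

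Of the 10 lipoprotein genes, 2 rose (Apom and Lipc), 1 fell (Apoc2) and 7 were not called. All 10 passed the low-count filter. Of all tested genes 12.2% were called, 7.36% as higher and 4.81% as lower. The median log2 fold change of the 10 genes was 0.21, beside 0.00 over all tested genes. In normalised CPM the groups stood apart without overlap for 3 genes that were higher (Apom, Lipc and Apoa4) and 1 that was lower (Apoc2), beside 16.8% and 16.7% of all tested genes, or 33.5% together, so that count by itself is near the background. The genes were abundant, and 4 of them stood among the top 100 genes of the table by mean FPKM. Apoe ranked 9, Apoa1 ranked 27, Apoc3 ranked 34 and Apoa4 ranked 91.

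**Figure D1:**
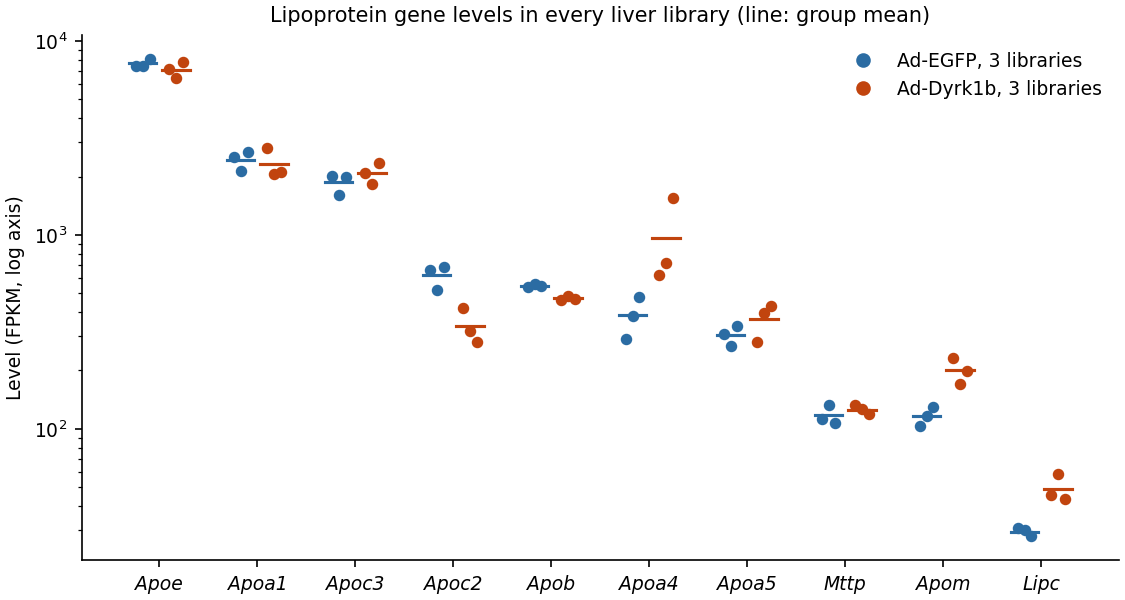
Level of each of the 10 genes in FPKM on a log axis, with 1 point per library and a line at the group mean (blue, Ad-EGFP; red, Ad-Dyrk1b). On this scale Apoc2 and Apob lie lower and Apom, Lipc and Apoa4 lie higher in all 3 Ad-Dyrk1b libraries, while Apoe spans 6423 to 8122 FPKM over both groups. In normalised CPM the groups of Apob overlap.

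Apom encodes apolipoprotein M, a lipocalin found mostly on high-density lipoprotein, where it carries sphingosine 1-phosphate. It lies on chromosome 17, from 35128997 to 35132050 on the minus strand (ENSMUSG00000024391, mm10). Its level was 233, 171 and 198 FPKM in the Ad-Dyrk1b libraries and 104, 117 and 129 FPKM in the Ad-EGFP libraries. The lowest Ad-Dyrk1b library therefore exceeded the highest Ad-EGFP library. The group means were 201 ± 30.8 and 116 ± 12.9 FPKM (SD, n = 3 each). Apom rose 1.82-fold, or 0.87 ± 0.12 on the log2 scale (SE; edgeR adjusted p = 0.000632). It was called in all 16 alternative settings, at 0.78 to 0.94.

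Lipc encodes hepatic lipase, a secreted enzyme that hydrolyses triglyceride and phospholipid of remnant particles and high-density lipoprotein. It lies on chromosome 9, from 70798128 to 70952226 on the minus strand (ENSMUSG00000032207, mm10). Its level was 45.5, 58.3 and 43.7 FPKM in Ad-Dyrk1b libraries, all above the 30.7, 29.9 and 27.9 FPKM of the Ad-EGFP libraries. Lipc was the least abundant of the 10 genes in both groups. Its means were 49.2 ± 7.95 and 29.5 ± 1.46 FPKM (SD, n = 3 each), and it rose 1.61-fold, or 0.68 ± 0.14 on the log2 scale (edgeR adjusted p = 0.00774). The call was made in all 16 alternative settings, at 0.56 to 0.82.

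Apoc2 encodes apolipoprotein C-II, the cofactor that lipoprotein lipase needs to act on triglyceride-rich particles. It lies on chromosome 7, from 19671579 to 19677941 on the minus strand (ENSMUSG00000002992, mm10). Its level was 418, 321 and 282 FPKM in Ad-Dyrk1b libraries and 662, 519 and 687 FPKM in Ad-EGFP libraries. The highest Ad-Dyrk1b library lay below the lowest Ad-EGFP library, and the means were 340 ± 69.9 and 623 ± 90.4 FPKM (SD, n = 3 each). Apoc2 fell by 0.79 ± 0.15 on the log2 scale, or 1.73-fold (edgeR adjusted p = 0.00523), and was called in all 16 alternative settings, at -0.93 to -0.68. A further gene, Gm44805, is annotated across nearly all of Apoc2 and Apoc4 on the same strand, and the assignment of reads that these genes share is unknown here. Gm44805 stood at 11 ± 1.35 and 11.3 ± 2.32 FPKM (SD, n = 3 each), far below Apoc2 (log2 fold change 0.01 ± 0.20, edgeR adjusted p = 0.974).

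The interval between Apoc4 and Apoc2 is 141 bases long and is printed because the genes on its sides differed in their change. The bases before Lipc and Apoa4 and just before Apom are printed as the upstream sequence of the genes with groups that did not overlap. The sequences are RefSeq's on GRCm38.p6, 5′ to 3′ on the gene's strand, with any match to the searched motifs in capitals. They stop at the first start annotated by RefSeq or GENCODE, except that for Apom 30 bases before the RefSeq start are given, because GENCODE places its start farther upstream.
Apoc2, chr7:19677942-19678082, minus strand: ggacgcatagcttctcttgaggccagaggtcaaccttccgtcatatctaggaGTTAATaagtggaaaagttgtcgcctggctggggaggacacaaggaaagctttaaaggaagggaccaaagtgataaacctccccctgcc
Lipc, chr9:70952227-70952471, minus strand: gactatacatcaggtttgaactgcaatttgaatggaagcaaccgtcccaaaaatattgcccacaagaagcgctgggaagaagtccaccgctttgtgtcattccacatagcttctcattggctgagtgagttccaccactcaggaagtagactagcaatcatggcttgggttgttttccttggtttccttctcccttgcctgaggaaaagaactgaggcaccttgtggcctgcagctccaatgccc
Apoa4, chr9:46240594-46240695, plus strand: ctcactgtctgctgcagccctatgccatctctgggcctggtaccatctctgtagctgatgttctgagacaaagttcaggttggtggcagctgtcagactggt
Apom, chr17:35131802-35131831, minus strand: gtcaagggtcgaggcgagggggctggaggc

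RefSeq windows of 300 bases (250 before and 50 after a start) were found for 9 of the 10 genes, 13 windows in all. Both strands were searched for 4 motifs. The TATA motif TATAAA occurred in 4 of the 13 windows, from 3 of the 9 genes (Apoa5, Apob and Apoe), and in 13.6% of all 32851 windows of the table. Windows 1 and 2 of Apoa5 overlap and both hold the motif, so a site may be counted more than once. The motif GTTAAT occurred in 2 (Apoc2 and Apoe), beside 7.10% of all windows. The GC box GGGCGG occurred in 2 (Lipc and Mttp), beside 35.7% of all windows. The HNF4 motif CAAAGTCCA occurred in 0 of the 13, beside 0.475% of all windows. These are matches of letters in fixed windows, and the only match in the printed bases is GTTAAT before Apoc2.

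Apoc2 sits in a cluster with Apoc4, Apoc1 and Apoe, all on the minus strand of chromosome 7. Its neighbour Apoc4, which encodes a minor apolipoprotein, stood at 484, 391 and 528 FPKM in Ad-Dyrk1b and 459, 334 and 510 FPKM in Ad-EGFP libraries, so the groups overlapped. Its log2 fold change was 0.19 ± 0.16 (edgeR adjusted p = 0.482). The ratio of Apoc2 to Apoc4 in FPKM was 0.862, 0.821 and 0.533 in Ad-Dyrk1b and 1.44, 1.56 and 1.35 in Ad-EGFP libraries. The ratio separated the groups, as Apoc2 did by itself, while Apoc4 did not. Apoc1, an apolipoprotein of several particle classes, had -0.17 ± 0.16 (edgeR adjusted p = 0.522), and the flanking genes Clptm1 and Tomm40 had 0.03 ± 0.10 and 0.06 ± 0.12 (edgeR adjusted p = 0.880 and 0.777). Apoc2 was the single called gene among these 6.

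Apoe, which encodes the ligand by which remnant particles are taken up by the liver, was the most abundant of the 10. It lies on chromosome 7, from 19696109 to 19699188 on the minus strand. Its level was 7156, 6423 and 7771 FPKM in Ad-Dyrk1b libraries and 7476, 7418 and 8122 FPKM in Ad-EGFP libraries, and the groups overlapped. Its log2 fold change was -0.02 ± 0.13 (edgeR adjusted p = 0.922), and some settings turned its sign. Apoe held 51.8% to 53.4% of the counts of the 10 genes in Ad-Dyrk1b libraries and 56.8% to 57% in Ad-EGFP libraries. Macrophages also make Apoe. Of 10 Kupffer cell and macrophage markers 9 passed the low-count filter and were tested. Of these 1 was called higher and 0 lower (Cd68, which encodes a lysosomal protein of macrophages, at 0.47 ± 0.13, edgeR adjusted p = 0.0304), while 4 had an unadjusted p under 0.05. DESeq2 called 2 higher, Cd68 and Clec4f (Clec4f at 0.77 ± 0.22, edgeR adjusted p = 0.0605). The summed level of the 10 markers was 1192 to 1457 CPM in Ad-Dyrk1b and 719 to 1302 CPM in Ad-EGFP libraries. The highest Ad-EGFP sum was that of replicate 3, where Marco stood at 178 CPM, beside 16.9 and 23.5 CPM in Ad-EGFP replicates 1 and 2. The part of macrophages in the level of Apoe was not tested. In bulk liver a change in cell number and a change in RNA per cell cannot be told apart.

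**Figure D2:**
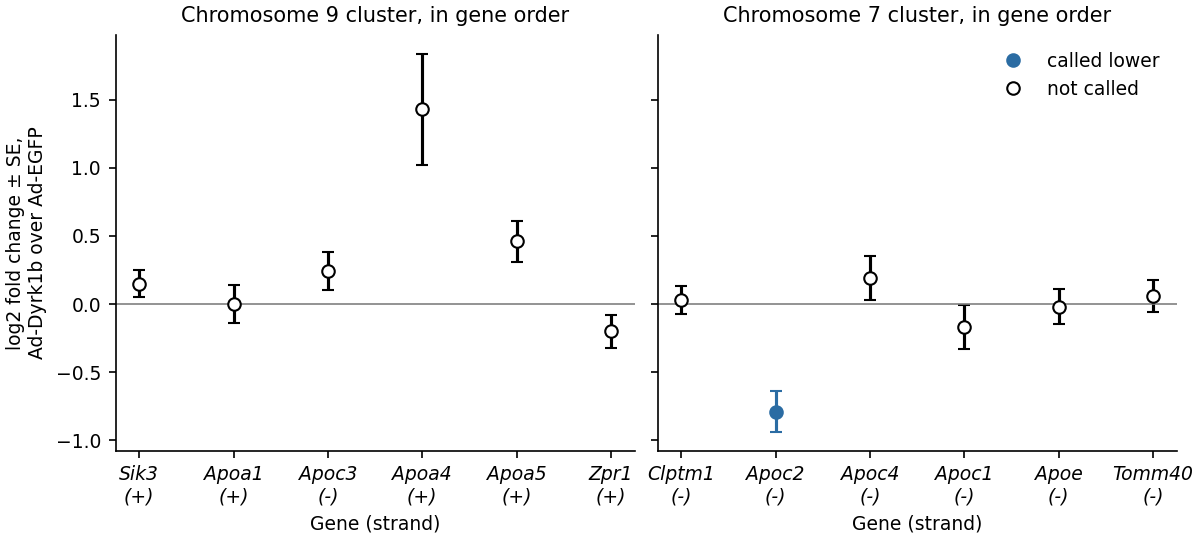
Log2 fold change with its SE for the genes of both apolipoprotein clusters and their flanking genes, in chromosome order with the strand in brackets. Apoc2 is the called gene at -0.79, next to Apoc4 at 0.19, and Apoa4 stands highest at 1.43 without being called.

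The second cluster, on chromosome 9, holds Apoa1, Apoc3, Apoa4 and Apoa5, and none of the 4 was called. Apoa1, the main protein of high-density lipoprotein (chromosome 9, 46228580 to 46230466, plus strand), stood at 2798, 2065 and 2103 FPKM in Ad-Dyrk1b and 2514, 2140 and 2675 FPKM in Ad-EGFP libraries. The groups overlapped fully. Its log2 fold change was 0.00 ± 0.14 (edgeR adjusted p = 0.986), and some settings turned its sign. Apoc3, the gene of the lipase inhibitor apolipoprotein C-III (46232933 to 46235636, minus strand), stood at 2086, 1837 and 2353 FPKM in Ad-Dyrk1b and 2004, 1613 and 1987 FPKM in Ad-EGFP libraries, with 0.24 ± 0.14 (edgeR adjusted p = 0.256). Its groups overlapped.

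Apoc2 and Apoc3 encode proteins with opposed actions on lipoprotein lipase, and their ratio in FPKM was 0.200, 0.175 and 0.120 in Ad-Dyrk1b libraries. In Ad-EGFP libraries it was 0.330, 0.322 and 0.346. All 3 Ad-Dyrk1b ratios lay below all 3 Ad-EGFP ratios, as the levels of Apoc2 did by themselves. The ratios describe transcripts and not the proteins in plasma.

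Apoa4 encodes apolipoprotein A-IV, a protein of chylomicrons and high-density lipoprotein (46240696 to 46243459, plus strand). It showed the largest difference of the 10 and the widest spread. Its level was 625, 721 and 1558 FPKM in Ad-Dyrk1b libraries and 292, 382 and 480 FPKM in Ad-EGFP libraries. The groups did not overlap, but Ad-Dyrk1b replicate 3 stood far above the other libraries of its group, whose coefficient of variation was 53.0%, beside 24.4% in Ad-EGFP. The log2 fold change was 1.43 ± 0.41 and was not called (edgeR adjusted p = 0.0830). Without Ad-Dyrk1b replicate 3 it was smaller, with less error, and was called at 0.90 ± 0.18 (edgeR adjusted p = 0.0130), in a fit that called 8.97% of all genes. The 6 fits that each drop 1 library gave edgeR adjusted p from 0.0130 to 0.233. It was also called without Ad-Dyrk1b replicate 1 (1.68, edgeR adjusted p = 0.0469). With libraries blocked by replicate number it was called at 1.32 ± 0.16 (edgeR adjusted p = 0.00104), in a fit that called 14.3% of all genes.

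Ad-Dyrk1b replicate 3 also differed in blood cell transcripts. The summed level of 7 erythroid markers was 872, 1121 and 3846 CPM in Ad-Dyrk1b replicates 1, 2 and 3, and 527 to 843 CPM in Ad-EGFP libraries. Of the 7, 0 were called by edgeR, DESeq2 or limma-voom, and 0 had an unadjusted p under 0.05 in edgeR. The part of that library's blood content in the level of Apoa4 was not tested. The intestine makes Apoa4 too. The summed level of 6 enterocyte markers was 94.4 to 126 CPM in Ad-Dyrk1b and 78.2 to 96.6 CPM in Ad-EGFP libraries. Only 2 of the 6, Fabp2 and Vil1, passed the low-count filter and were tested. Of these 0 were called by edgeR, DESeq2 or limma-voom and 1, Fabp2, had an unadjusted p under 0.05 in edgeR. Fabp2, the gene of a fatty acid binding protein, made up nearly all of that sum, with 0.30 ± 0.13 (edgeR adjusted p = 0.145). Vil1 had 3 to 17 counts per library, Alpi had 1 count in each Ad-Dyrk1b library and 0 in the others, Cdx2 had 2 counts in 1 Ad-EGFP library, and Cdx1 and Sis had 0 in every library. The part of such cells in the level of Apoa4 was not tested.

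Apoa5 encodes apolipoprotein A-V, a protein of low plasma concentration that promotes triglyceride clearance (46268633 to 46271919, plus strand). Its level was 282, 394 and 430 FPKM in Ad-Dyrk1b and 309, 267 and 338 FPKM in Ad-EGFP libraries. Ad-Dyrk1b replicate 1 lay within the range of the controls. The log2 fold change from counts was 0.46 ± 0.15 (edgeR adjusted p = 0.0655). The gene was called if Ad-Dyrk1b replicate 1 was dropped (0.57, edgeR adjusted p = 0.0415) or if Ad-EGFP replicate 3 was dropped (0.61, edgeR adjusted p = 0.0386). The 6 such fits spanned edgeR adjusted p from 0.0386 to 0.180. The genes at the ends of the cluster, Sik3 and Zpr1, had 0.15 ± 0.10 and -0.20 ± 0.12 (edgeR adjusted p = 0.364 and 0.308).

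Apob and Mttp, the pair on which particle assembly rests, were not called. Apob, which encodes the structural protein of very-low-density lipoprotein (ENSMUSG00000020609, chromosome 12, 7977648 to 8016835, plus strand), had 36793, 47084 and 38252 counts in Ad-Dyrk1b and 40695, 46990 and 39262 counts in Ad-EGFP libraries. Its log2 fold change was -0.08 ± 0.14 (edgeR adjusted p = 0.742). Mttp, which encodes the large subunit of the transfer protein (ENSMUSG00000028158, chromosome 3, 138089854 to 138144968, minus strand), stood at 132, 126 and 119 FPKM in Ad-Dyrk1b and 113, 132 and 107 FPKM in Ad-EGFP libraries. Its groups overlapped, and the difference was 0.18 ± 0.11 on the log2 scale (edgeR adjusted p = 0.313). Trmt10a, on the other strand, overlaps Mttp and stood at 2.93 ± 0.565 and 3.91 ± 0.588 FPKM (SD, n = 3 each). How reads in the overlap were assigned is unknown here.

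**Figure D3:**
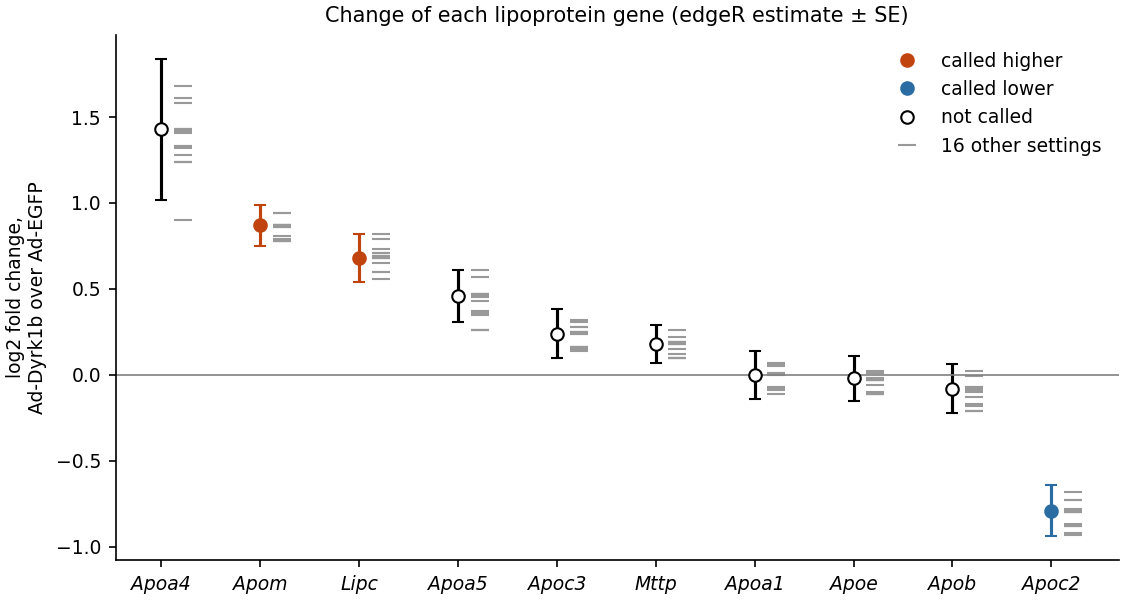
Log2 fold change (Ad-Dyrk1b over Ad-EGFP) of the 10 genes from the edgeR fit with its SE, and grey ticks for the 16 alternative settings beside each gene. Apom, Lipc and Apoc2 keep their direction at every tick, and the ticks of Apoa1, Apoe and Apob lie on both sides of 0.

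Read per length, Apoe, Apoa1, Apoc3, Apob and Lipc held the same place in the order of mean FPKM in both groups, and the other 5 genes changed places. In Ad-EGFP livers it ran Apoe, Apoa1, Apoc3, Apoc2, Apob, Apoa4, Apoa5, Mttp, Apom and Lipc in mean FPKM. The ranges of Apoc2 and Apob overlapped, as did those of Apoa4 and Apoa5 and of Mttp and Apom, so the order within each of these pairs is not settled by 3 libraries. In Ad-Dyrk1b livers Apoc2 came after Apob and Apoa5, Apoa4 came just after Apoc3 and Apom came before Mttp. There the ranges of Apoa1 and Apoc3 overlapped, as did those of Apoa5 and Apoc2. Together the 10 genes held 1.74% to 2.09% of all counts in Ad-Dyrk1b libraries and 1.83% to 2% in Ad-EGFP libraries. The share of the transcriptome given to these genes thus overlapped between the groups.

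For 3 of the genes the scale mattered, because the authors' FPKM did not follow from the counts by 1 fixed length. Dividing counts by FPKM and library total gives the length the FPKM used. The ratio of its longest to its shortest value over the libraries was 1 after rounding for Apom, Apoc2, Apoa1, Apoa4, Apoc3, Apoe and Mttp, but 1.17 for Apob, 1.35 for Apoa5 and 1.29 for Lipc. Among 2258 genes with 1000 or more counts in every library, the ratio of longest to shortest length had a median of 1.008 and a 95th percentile of 1.15. Apob and Apoa5 were among these genes. Lipc was not, with 776 and 825 counts in Ad-EGFP replicates 2 and 3. How the authors set these lengths is unknown here. GENCODE annotates 4 protein-coding transcripts of Apob from 1118 to 13934 bases, 6 of Apoa5 from 358 to 2515 bases and 3 of Lipc from 376 to 1920 bases, while Apom and Apoa4 have 1 each.

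Apob shows the effect on a value most plainly. Its implied length was 4160, 4872 and 4577 bases in Ad-Dyrk1b and 4223, 4802 and 4170 bases in Ad-EGFP libraries, far short of the longest annotated transcript. In FPKM it stood at 463, 483 and 467 in Ad-Dyrk1b and 537, 559 and 543 in Ad-EGFP libraries, which did not overlap, with a coefficient of variation of 2.20% and 2.08%. In CPM without TMM scaling it stood at 1926, 2351 and 2139 against 2269, 2686 and 2266, which overlapped, with 9.95% and 10%. The log2 difference in FPKM + 1 was -0.21 ± 0.11 and was not called either (limma-trend adjusted p = 0.212). FPKM also lacks TMM scaling, and counts scaled by library totals alone gave -0.17 ± 0.12 (edgeR adjusted p = 0.381). The log2 difference thus moved with the scaling as well as with the length. Counted against the longest transcript, Apob would stand at 173 ± 17.3 CPM per kilobase in Ad-EGFP livers (SD, n = 3) in place of 547 ± 11.4 FPKM, so its place in the order above depends on the length chosen.

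**Figure D4:**
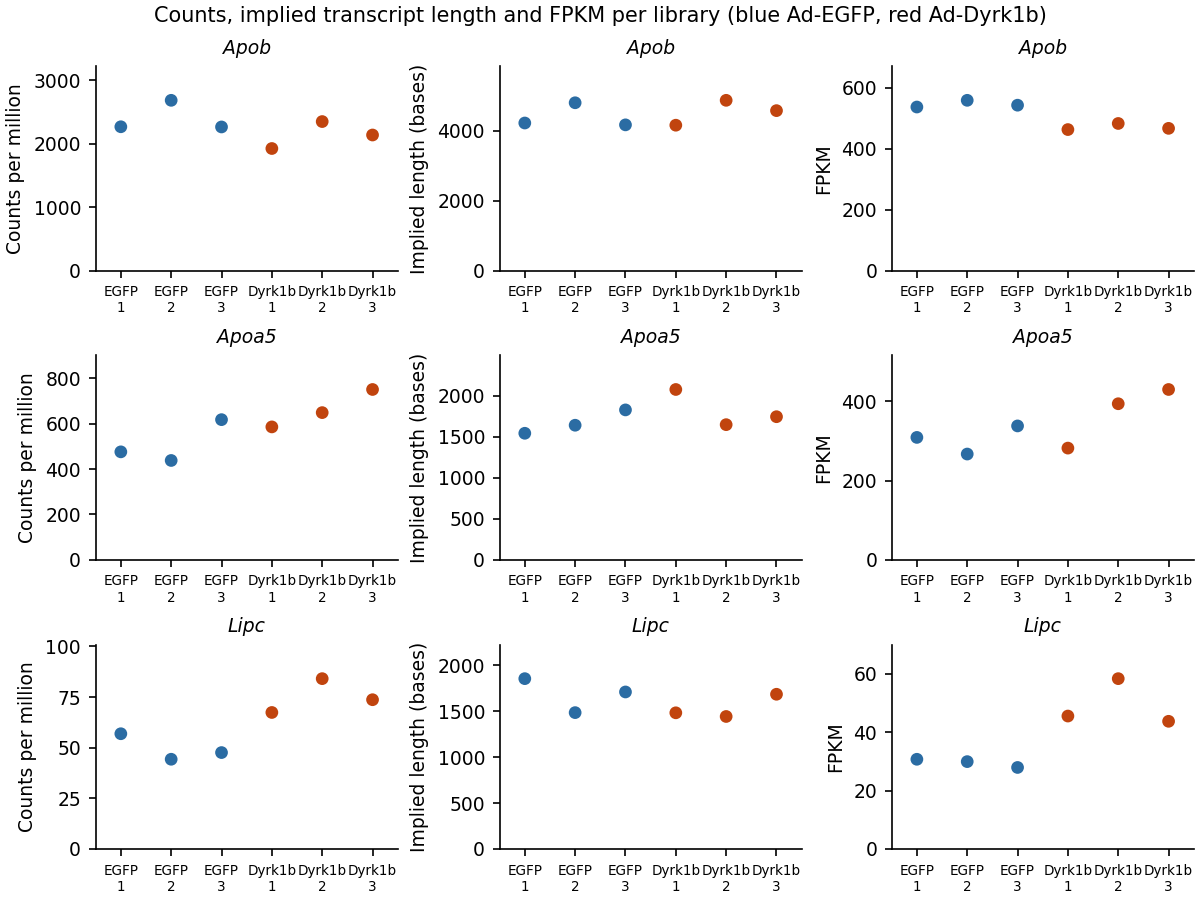
CPM without TMM scaling, implied transcript length in bases and FPKM of Apob, Apoa5 and Lipc in each library, on axes that start at 0 (blue, Ad-EGFP; red, Ad-Dyrk1b). The implied length of Apob ranges from 4160 to 4872 bases and its FPKM separates the groups where its CPM does not.

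For Apoa5 the FPKM scale gave 0.26 ± 0.17 (limma-trend on log2(FPKM + 1), adjusted p = 0.332). FPKM carries no TMM scaling, and library totals alone gave 0.37 ± 0.14 from counts (edgeR adjusted p = 0.0995). The FPKM value thus differs from the main one in scaling as well as in length. The implied length of Apoa5 was longest, 2077 bases, in Ad-Dyrk1b replicate 1. Lipc rose on both scales, by 0.71 ± 0.13 in log2(FPKM + 1) (limma-trend adjusted p = 0.00902). With limma-trend on FPKM, 10.3% of 12245 genes were called.

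By the p-values of the authors' deposited table, 4 of the 10 genes were higher and 1 lower at an adjusted p under 0.05, beside 4.65% and 2.76% of all 22274 genes (7.4% together). These shares include 5089 genes with no count, which could not be called, so they understate the shares among counted genes. The 10 genes were all well counted. The genes so called were Apom (adjusted p = 5.64e-10), Lipc (0.000323), Apoa5 (0.0248) and Apoa4 (0.0386) as higher and Apoc2 (7.74e-06) as lower, all from the authors' deposited table. DESeq2 run on the filtered counts called the same number, 4 higher and 1 lower of the 10, with 14.3% of 13201 genes called (8.93% higher and 5.42% lower). The calls for Apoa4 and Apoa5 thus depended on the test: DESeq2 gave adjusted p = 0.0290 and 0.0205 on log2 fold changes of 1.43 and 0.47, close to those of edgeR.

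The other genes of lipoprotein metabolism were grouped in 6 lists of 54 genes by role. Of the 54, 8 rose and 1 fell, or 16.7% beside the 12.2% of all tested genes, and their median log2 fold change was 0.01 beside 0.00. No list was tested as a set. Among the 8 other apolipoprotein genes 0 were called by edgeR, DESeq2 or limma-voom, and 1 (Clu) had an unadjusted p under 0.05. Apoa2, the second protein of high-density lipoprotein, stood at 1512, 1170 and 1635 FPKM in Ad-Dyrk1b and 1426, 898 and 1246 FPKM in Ad-EGFP libraries (0.35 ± 0.18, edgeR adjusted p = 0.227). Its groups overlapped.

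Among 7 lipases and their regulators 2 rose, beside 7.36% of all tested genes, with a median of 0.01. Lpl, which encodes lipoprotein lipase, the enzyme that C-II activates, stood at 184, 145 and 154 FPKM in Ad-Dyrk1b and 73.9, 72.5 and 92.4 FPKM in Ad-EGFP libraries. These groups lay far apart, and Lpl rose by 1.10 ± 0.13 (edgeR adjusted p = 0.000165). Lmf1, whose product the lipases need to mature, rose by 0.47 ± 0.12 (edgeR adjusted p = 0.0261). Dropping Ad-Dyrk1b replicate 3 or Ad-EGFP replicate 1 kept the call for Lmf1, and dropping any of the other 4 libraries ended it (edgeR adjusted p from 0.0185 to 0.111). Scaling by library totals ended it too (edgeR adjusted p = 0.0583), as did the 3 FPKM fits (limma-trend adjusted p from 0.0688 to 0.104). Lipg, which encodes endothelial lipase, had 0.01 ± 0.17 (edgeR adjusted p = 0.973). The genes Angptl4 and Angptl8, whose products inhibit lipoprotein lipase, had -0.29 ± 0.25 and -0.31 ± 0.46 (edgeR adjusted p = 0.495 and 0.712).

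In the adult liver Lpl is made mainly by cells other than hepatocytes. The sums of the Kupffer cell and macrophage markers given above overlapped between the groups only through Ad-EGFP replicate 3. Of the 9 tested markers 1 was called by edgeR and 2 by DESeq2. Of 7 T and NK cell markers 6 were tested. Of these 2 were called higher by edgeR, beside 7.36% of all tested genes, and 4 had an unadjusted p under 0.05. The summed level of the 7 was 35.1 to 47.7 CPM in Ad-Dyrk1b and 20 to 26.7 CPM in Ad-EGFP libraries. Of 5 endothelial markers 0 were called by edgeR (2 at an unadjusted p under 0.05) and 1, Lyve1, by DESeq2. Their sums were 154 to 224 CPM in Ad-Dyrk1b and 98.3 to 152 CPM in Ad-EGFP libraries. The sums for stellate cells overlapped, at 287 to 433 CPM and 284 to 380 CPM, with 0 of 6 called by edgeR, DESeq2 or limma-voom and 1 at an unadjusted p under 0.05. Of 5 bile duct markers 1, Spp1, was called higher by edgeR and 2, Sox9 and Spp1, by DESeq2. Their sums were 329 to 425 CPM and 200 to 237 CPM. Spp1 made up nearly all of these sums, with 0.85 ± 0.13 (edgeR adjusted p = 0.00134). Krt19 and Krt7, at 0.32 ± 0.32 and 0.41 ± 0.32, and Epcam, at -0.14 ± 0.24, were not called. The part of these cells in the level of Lpl was not tested.

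**Figure D5:**
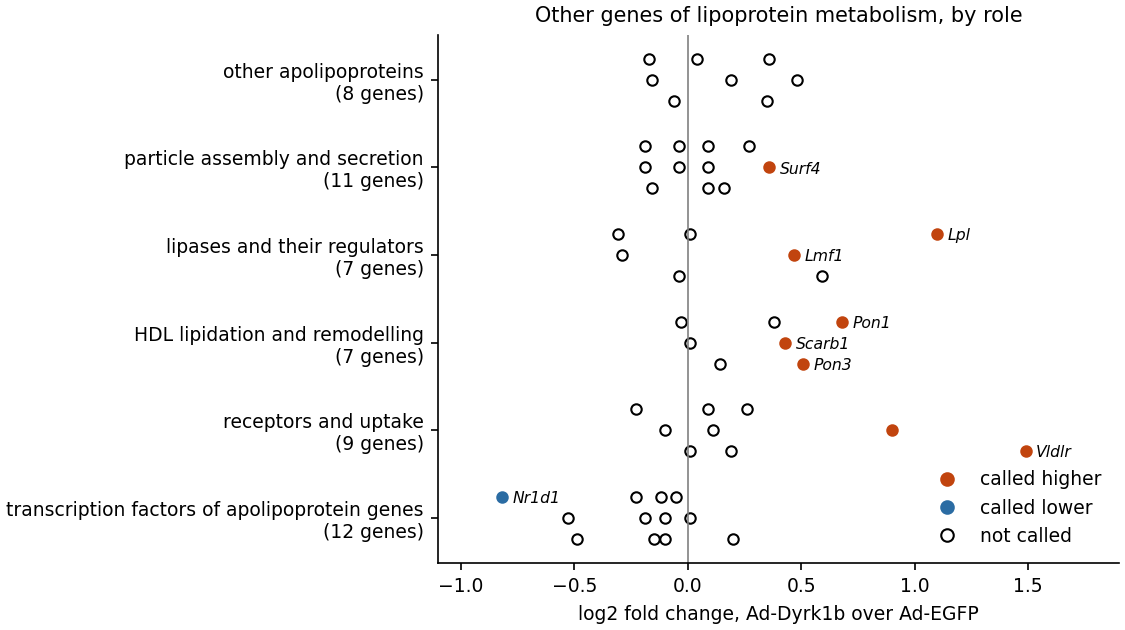
Log2 fold change (Ad-Dyrk1b over Ad-EGFP) of the 54 other genes of lipoprotein metabolism in 6 lists by role, with called genes filled and all but 1 of them named. The called genes run from Nr1d1 at -0.82 to Vldlr at 1.49, and the list of transcription factors lies mostly below 0.

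Genes that act on high-density lipoprotein had a median of 0.38, beside 0.00 over all tested genes, and 3 of 7 rose, beside 7.36% of all tested genes. Pon1, which encodes a paraoxonase carried on that particle, stood at 221, 233 and 260 FPKM in Ad-Dyrk1b and 166, 151 and 152 FPKM in Ad-EGFP libraries and rose by 0.68 ± 0.12 (edgeR adjusted p = 0.00256). Its relative Pon3 rose by 0.51 ± 0.11 (edgeR adjusted p = 0.00909), a call lost in the FPKM fit without a filter (limma-trend adjusted p = 0.0563). Scarb1, the receptor that takes cholesteryl ester from high-density lipoprotein, rose by 0.43 ± 0.11 (edgeR adjusted p = 0.0232). Dropping Ad-EGFP replicate 1 or either of Ad-Dyrk1b replicates 2 and 3 ended that call (edgeR adjusted p from 0.0333 to 0.104 over the 6 such fits), as did scaling by library totals (edgeR adjusted p = 0.0638) and the 3 FPKM fits (limma-trend adjusted p from 0.0892 to 0.127). The cholesterol exporter gene Abca1, the lecithin-cholesterol acyltransferase gene Lcat and the phospholipid transfer gene Pltp had -0.03 ± 0.15, 0.14 ± 0.12 and 0.01 ± 0.10 (edgeR adjusted p = 0.905, 0.466 and 0.958). Some settings turned the signs of Abca1 and Pltp.

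Of 9 receptor and uptake genes 2 rose, beside 7.36% of all tested genes, and 1 of the 2 is described here. Vldlr, the very-low-density lipoprotein receptor gene, stood at only 3.76, 3.30 and 3.28 FPKM in Ad-Dyrk1b and 1.14, 1.91 and 1.25 FPKM in Ad-EGFP libraries, which did not overlap, and rose by 1.49 ± 0.19 (edgeR adjusted p = 0.000458). Of 11 genes of particle assembly and secretion 1 rose, near the 7.36% of all tested genes. That gene was Surf4, which encodes a cargo receptor of the endoplasmic reticulum (0.36 ± 0.11, edgeR adjusted p = 0.0413). Of the 6 fits with a library dropped, only that without Ad-Dyrk1b replicate 3 kept this call (edgeR adjusted p from 0.0383 to 0.121). It was also lost with library totals (edgeR adjusted p = 0.109) and in the 3 FPKM fits (limma-trend adjusted p from 0.131 to 0.156).

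Of 12 transcription factor genes known to act on apolipoprotein promoters, 10 had a log2 fold change below 0. Of the 12, 1 was called, as lower, beside 4.81% of all tested genes. Their median was -0.13, beside 0.00 over all tested genes. Nr1d1, the gene of the circadian repressor REV-ERB alpha, stood at 2.63, 2.77 and 3.08 FPKM in Ad-Dyrk1b and 5.85, 6.20 and 3.87 FPKM in Ad-EGFP libraries and fell by 0.82 ± 0.19 (edgeR adjusted p = 0.0173). Dropping replicate 3 of either group kept the call, and dropping any of the other 4 libraries ended it (edgeR adjusted p from 0.00660 to 0.0637), as did the FPKM fit without a filter (limma-trend adjusted p = 0.0590). Hnf4a, a central factor of hepatocyte genes, stood at 113, 110 and 94.9 FPKM in Ad-Dyrk1b and 134, 132 and 130 FPKM in Ad-EGFP libraries. Those groups did not overlap, but the gene was not called (-0.23 ± 0.11, edgeR adjusted p = 0.190).

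The genes beside the 2 genes that rose were read in the same fit. Bag6, which encodes a chaperone, lies 3127 bases from Apom on the other strand and fell by 0.49 ± 0.09 (edgeR adjusted p = 0.00499), while D17H6S53E, 141 bases from Apom on its other side, had -0.31 ± 0.19 (edgeR adjusted p = 0.308). Apom thus rose between neighbours with values below 0. Aqp9, the gene of the hepatocyte glycerol channel, lies 158432 bases from Lipc on the same strand and rose by 0.67 ± 0.12 (edgeR adjusted p = 0.00449), close to the 0.68 ± 0.14 of Lipc. The call for Aqp9 was lost in the FPKM fit without a filter (limma-trend adjusted p = 0.0537). Adam10, on the other side of Lipc, had 0.13 ± 0.12 (edgeR adjusted p = 0.522). Ldah, the gene of a lipid droplet hydrolase and the next protein-coding gene downstream of Apob at 191271 bases, fell by 0.54 ± 0.10 (edgeR adjusted p = 0.00548).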

How the data were processed

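Whole-number counts per gene and library were deposited by the authors without normalization, per the file headers. FPKM values, their group means, the log2 ratio of the means, a p-value and its adjusted p-value were also deposited by the authors, per the file headers. Per the submitters' processing notes the build was mm10 and DESeq2 was used; the sources used here name no aligner, counter, annotation or strand setting. Groups came from the sample titles and columns were matched by name. Coordinates and neighbours came from GENCODE M21, which held 22219 of the 22274 identifiers.

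Counts were tested with edgeR 4.0.16 (R 4.3.3): filterByExpr (minimum count 10, minimum total 15), TMM scaling, a robust quasi-likelihood fit of 3 against 3 libraries, two-sided, with Benjamini-Hochberg adjustment over all 13201 tested genes. A gene was called at an adjusted p under 0.05. Values after ± are the SE for log2 fold changes and the SD for FPKM. The fit was tested on simulated counts. Alternatives used DESeq2 1.42.0, limma 3.58.1 (voom, and trend on log2 FPKM with pseudocounts of 1 and 0.1), other scalings, no filter, a replicate block, and each library left out. A count of 0 allows up to 3 counts, which covers counting error only.

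The 10 genes and the lists were chosen with earlier results of these data known, and no result here is independent of that choice. The rule for named genes took the 10 genes, Dyrk1b, the called genes of each list, 10 genes fixed by name, the neighbours by position, and for the 3 called genes the 3 genes most like each in log2 CPM. Some genes that the rule names are not reported here. Angptl4, Angptl8, Lipg, Trf, Cd68, Clec4f, Marco, Lyve1, Fabp2, Vil1, Alpi, Cdx1, Cdx2, Sis and Clu lie outside it. So do the bile duct markers Spp1, Sox9, Krt19, Krt7 and Epcam. All of these were picked with their values in view. Genes on the other strand overlap Apoa4, Apoa5, Lipc and Mttp, and without a stated strand setting their reads cannot be told apart.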

Additional observations from a re-analysis of the deposited data

How the results depend on the processing

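Apom, Lipc and Apoc2 kept their direction and their call in all 16 alternatives, and Apoc3 and Mttp stayed uncalled and above 0 in all 16. Over the whole table, limma-trend on log2(FPKM + 1), on log2(FPKM + 0.1) and on log2(FPKM + 1) without a filter called 536, 523 and 366 genes higher, and the last called 394 lower. Library totals alone gave 1051 lower. With 1 library left out 612 to 800 genes were higher and 294 to 461 lower. DESeq2 called 4 of the 10 genes higher, with Apoa4 at 1.43 and Apoa5 at 0.47. Apoa5 was also called without the low-count filter, at 0.46. With 1 library left out 2 to 4 of the 10 were higher, and Apoa4 ranged from 0.90 to 1.68 and Apoa5 from 0.35 to 0.61. Among the 54 other genes, library totals, both filtered FPKM fits and the unfiltered FPKM fit called 4, 4, 4 and 3 higher, and library totals and the unfiltered FPKM fit called 2 and 0 lower. With 1 library left out 5 to 7 were higher and 0 to 1 lower. The cause was not tested.

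Apoa1 was below 0 with library totals (-0.07), upper-quartile scaling (-0.0014) and the 3 FPKM fits (-0.08 each), and ranged from -0.11 to 0.07 with 1 library left out. Apob and Apoe ranged from -0.18 to 0.02 and from -0.10 to 0.02 with 1 library left out. Abca1 and Pltp ranged from -0.23 to 0.06 and from -0.04 to 0.06, and Pltp had -0.07 with library totals and -0.08 in the 3 FPKM fits. Without Alb in the denominator the 10 genes held 2.02% of counts and 2.53% of summed FPKM in Ad-EGFP livers.

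Whether replicate numbers pair the libraries is not settled. Deviations of same-numbered libraries correlated at 0.0245, 0.172 and 0.108 across genes, and those of other pairs at -0.207 to 0.0845. Ad-Dyrk1b replicate 1 correlated best with Ad-EGFP replicate 3 (0.0845). With the replicate block 14.3% of genes were called, 1109 higher and 774 lower. Of the 10 genes 4 were higher, with Apoa4 at 1.32 ± 0.16 (edgeR adjusted p = 0.00104) and Apoa5 at 0.47 ± 0.12 (edgeR adjusted p = 0.0289). Neither was called in the fit without the block. Of the 54 other genes 2 were lower.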

Other observations

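The genes whose pattern over the 6 libraries was most like that of each called gene were sought among 5084 protein-coding genes with a mean of 10 FPKM or more. For Apom these were Cd47 (r = 0.998), Spp2 (r = 0.996) and Mogs (r = 0.993), which rose by 0.42, 0.89 and 0.48 on the log2 scale. For Lipc they were Eif3h (r = 0.989), Nqo2 (r = 0.987) and Cyp2c23 (r = 0.983), of which Cyp2c23 was called, at 0.47. For Apoc2 they were Arpp19 (r = 0.992), Ppp1r2 (r = 0.992) and Fkbp8 (r = 0.990), of which Arpp19 was called, at -0.34. The libraries fall into 2 groups that differ in many genes, and correlations this high are picked as the best of many over 6 points, so they describe likeness only.

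In the annotation columns of the deposited data, 8 of the 10 genes carry the term high-density lipoprotein particle, which 34 genes in all have. The term very-low-density lipoprotein particle stands with 7 of the 10 and with 29 genes in all, and chylomicron with 6 of the 10 and with 12 in all. Apom and Apoc2, which changed in opposite directions, both carry the first pair of terms.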
